A study of Mus musculus with 32 samples.

Results

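The comparison asked whether the effect of losing Trem2 on the RNA of LPS-treated macrophages depended on the supply of the growth factor M-CSF. It rests on 16 of the 32 libraries of the series, those labelled as given LPS, with 4 libraries in each of 4 groups, chosen by the group labels alone. The cells were bone marrow-derived macrophages, and the strain is labelled C57BL/6 for both genotypes. Wild-type cells (WT in the labels) and cells of Trem2-/- mice (T2KO, a line made earlier by another laboratory, per the labels) were each kept overnight in low or normal M-CSF. The protocols give the LPS as 10 ng/ml for 4 hours. They name 0.5% and 10% LCCM as the culture media, and joining these percentages to low and normal M-CSF is an inference. The interaction is the log2 knockout to wild-type ratio in low M-CSF minus the same ratio in normal M-CSF. A negative value thus means that the knockout stood lower, relative to wild-type, in low than in normal M-CSF.

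TREM2 is a lipid-binding receptor of macrophages and microglia that signals through the adaptor DAP12 and the kinase SYK. M-CSF acts through its own receptor, CSF1R, and keeps macrophages alive, growing and dividing. LPS, a component of bacterial walls, starts the inflammatory response through the receptor TLR4, and is known to stop macrophages from dividing and to raise their use of glucose.

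Total counts of the 16 libraries ranged from 3068863 to 11415752. Levels are given as CPM, counts scaled to library totals adjusted by a factor for each library (TMM), unless called raw. In the shallowest library the 3 counts that an observed 0 allows at 95% confidence correspond to 0.978 raw CPM, for counting error only. The TMM factor of that library was 0.671, so its floor is higher on the adjusted scale of the gene levels. Within each group, libraries 1 and 3 resembled each other, and so did libraries 2 and 4. A chi-square statistic of their counts, divided by its degrees of freedom, was 4.03 to 9.5 in these 8 pairs and 9.73 to 34.6 in the other 16. All pairs differed by more than sampling noise, which separately prepared libraries of the same RNA could do too, so this does not show that they are independent. The 4 libraries of a group were counted as replicates because the labels number them so. No label says whether they came from separate mice or cultures, and p-values measure only the spread between these libraries. Macrophage markers summed to 5567 to 9049 raw CPM, and 0 of 10 passed for the interaction. Monocyte markers, mainly F13a1, summed to 720 to 892 raw CPM in knockout libraries in low M-CSF and to 143 to 354 in the other 3 groups, with 0 of 6 passing. Neutrophil markers summed to 178 to 270 raw CPM in the knockout in low M-CSF and to 105 to 165 elsewhere. Of 10 tested, 2, S100a9 and Mmp8, passed as higher (20%, against 5.49% of all genes). Without wild-type low library 4 or wild-type normal library 2, 0 passed. Of the other marker lists, the B cell gene Cd79b passed as lower at summed levels up to 2.12 raw CPM, and no other member passed. Pax5, Cd3e, Cd3g, Ncr1, Hba-a1, Hbb-bs, Ms4a2 and Calcr had no count in any of the 16 libraries. The part of monocyte and neutrophil RNA in the results was not tested. In bulk RNA, fewer cells of a type and less RNA per cell cannot be told apart.

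Trem2 (chr17:48346401-48352276, mm10) checks the labels, although reads at the 3' end of a transcript need not cover the deleted part. It stood at 240.3, 194, 253 and 216 CPM in the wild-type libraries in normal M-CSF and at 289, 328, 312 and 399 CPM in those in low M-CSF. The knockout libraries held 5.9, 4.94, 9.01 and 3.65 CPM in normal and 4.01, 9, 6.66 and 4.37 CPM in low M-CSF. Knockout and wild-type libraries did not overlap in either medium. The interaction of Trem2 itself, -0.54 ± 0.32 (log2 ± SE), did not pass (edgeR adjusted p = 0.324).

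More genes differed between the genotypes in low than in normal M-CSF, by a margin that depended on the fit. With LPS, 2147 of 11244 genes tested (19.1%) passed in low M-CSF at an edgeR adjusted p under 0.05, 922 higher (8.2%) and 1225 lower (10.9%) in the knockout (1159 and 1021 with RLE size factors). In normal M-CSF 454 genes passed (4.04%), 223 higher (1.98%) and 231 lower (2.05%). With only the 2 groups of each comparison fitted, the counts were 1000 in low (573 higher, 427 lower) and 868 in normal M-CSF (463 higher, 405 lower). The interaction, which tests the change in the genotype difference gene by gene, passed for 617 genes (5.49%). Of these, 247 were positive (2.2%) and 370 negative (3.29%), and 2519 genes had an unadjusted p under 0.05. With RLE size factors in place of TMM the split turned, with 309 positive and 268 negative among 577 genes, and with the 16 libraries fitted alone 225 were positive and 214 negative. With the resembling libraries summed in pairs 1 gene passed, S100a4. Libraries 1 and 2 of each group alone gave S100a4 and Aurkb, and libraries 3 and 4 alone gave S100a4 and Fads2. Apart from S100a4, the calls below therefore rest on counting all 4 libraries of a group as independent. Leaving out single libraries gave 322 to 807 genes. The count fell by more than 1.5 times without wild-type normal library 2 (322) or 4 (381), wild-type low library 4 (361), knockout low library 1 (356) or knockout normal library 3 (376).

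In the fit of all libraries, 491 of the 617 genes (79.6%) passed for the genotype difference in low M-CSF only and 47 (7.62%) in normal M-CSF only. A further 10 passed in both with the same sign, 9 in both with opposite signs and 60 in neither. The larger genotype difference lay in low M-CSF for 528 genes (85.6%). Read along the medium, 274 of the 370 negative genes (74.1%) had lower values in low than in normal M-CSF in both genotypes. Of the 247 positive genes, 150 (60.7%) had higher values in low M-CSF in both genotypes. For these genes the sign of the interaction itself makes the change larger in the knockout. The shares of these patterns among all tested genes are not given here. Across all tested genes, the log2 change from normal to low M-CSF had a median of -0.10 (wild-type) and -0.14 (knockout), which RLE size factors moved to 0.01 and 0.02. The median size of the 617 interactions was 1.21 on the log2 scale, 103 were 4-fold or larger, and 179 were under 2-fold. On the CPM scale itself, 19 of the 617 had a difference of differences of the other sign.

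**Figure D1:**
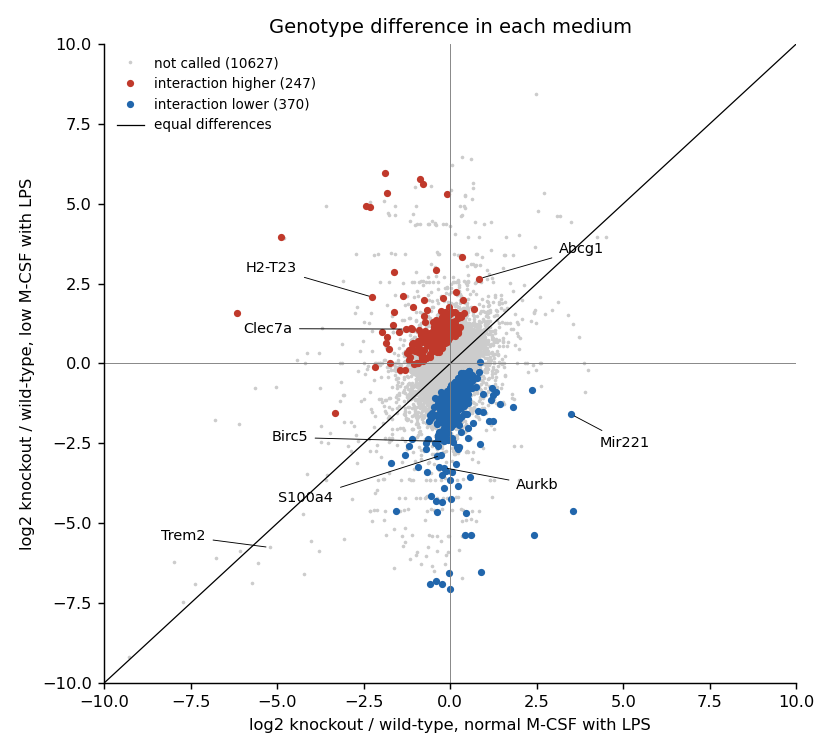
Log2 knockout to wild-type ratio of each of 11244 genes in normal (horizontal) and low (vertical) M-CSF with LPS. Genes called for the interaction lie off the line of equal differences, 247 above it and 370 below it.

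S100a4, a calcium-binding protein linked to cell motility, had the smallest adjusted p of all genes. Its wild-type libraries held 2101, 1807, 1965 and 1709 CPM in normal M-CSF and 773, 918, 633 and 1016 CPM in low M-CSF. The knockout libraries held 1769.6, 1501, 1688 and 1327 CPM in normal and 88, 109.6, 124 and 133 CPM in low M-CSF. The genotypes overlapped in normal M-CSF and were far apart in low M-CSF. The genotype log2 ratio was -2.88 ± 0.17 in low and -0.27 ± 0.16 in normal M-CSF, and the interaction was -2.61 ± 0.23 (edgeR adjusted p = 2.26e-09). With paired libraries summed it was -2.58 (edgeR adjusted p = 0.014), and it passed under all 24 alternatives tried.

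S100a6, a related calcium-binding protein, lies close to S100a4 on chromosome 3 (chr3:90612894-90614414 and chr3:90603770-90606045). It was singled out after its values were seen, having the next smallest adjusted p. It held 1586, 1339, 1454 and 1132 CPM in wild-type and 1461, 1144, 1320.1 and 968 CPM in knockout libraries in normal M-CSF. The values in low M-CSF were 498, 609.6, 404 and 718 CPM in wild-type and 92, 125, 106 and 140.3 CPM in knockout libraries. As for S100a4, the genotypes overlapped in normal and were separate in low M-CSF. The interaction of S100a6 was -2.10 ± 0.24 (edgeR adjusted p = 1.51e-06), and with paired libraries summed its adjusted p was 0.0666.

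**Figure D2:**
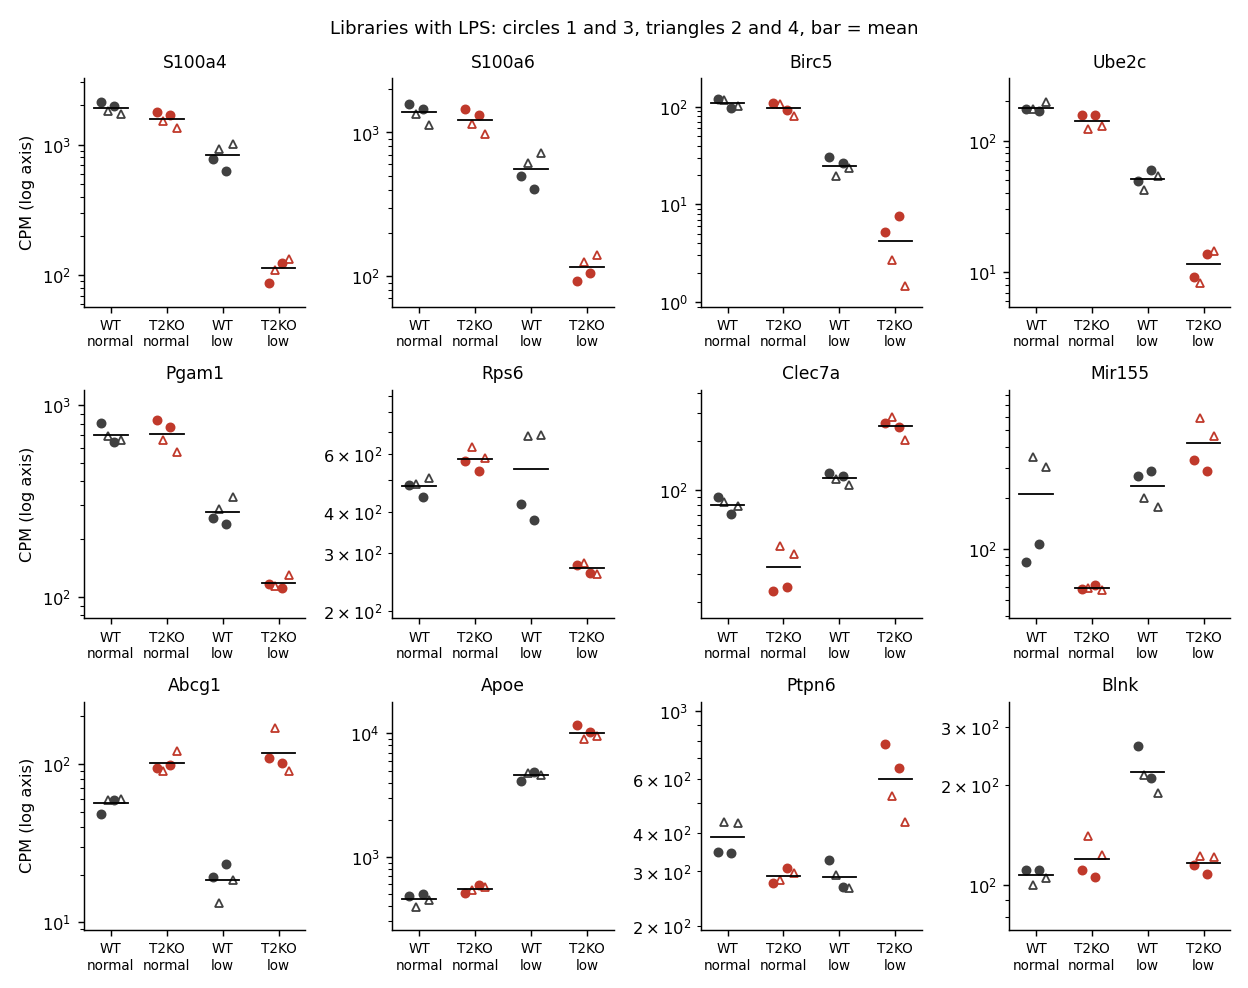
CPM on a log axis of 12 genes in each of the 16 libraries with LPS, by genotype and medium, with circles for libraries 1 and 3, triangles for libraries 2 and 4, and a bar at the group mean. S100a4, S100a6, Birc5, Ube2c and Pgam1 are lowest in the knockout in low M-CSF. In wild-type cells, libraries 1 and 3 stand apart from 2 and 4 for Mir155 and Ptpn6 in normal M-CSF, among others. Rps6 shows this split in wild-type cells in low M-CSF.

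A pair of microRNA loci passed with interactions of opposite sign. The counts come from polyadenylated RNA, so they measure the primary transcript that carries the hairpin and not the mature microRNA. The mature sequences (RefSeq, GRCm38.p6), shown to identify the products of these loci, have the seed, bases 2 to 8, in capitals. miR-155 (chr16:84714143-84714165, plus strand) is known as an LPS-induced microRNA that favours inflammation, and miR-221 (chrX:19146307-19146329, minus strand) is known to target cell-cycle inhibitors. Their seeds differ.
mmu-miR-155-5p: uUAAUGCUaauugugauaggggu
mmu-miR-221-3p: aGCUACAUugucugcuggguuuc

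Mir155 held 83.3, 346, 106 and 302 CPM in wild-type and 57.7, 59.1, 61.2 and 57.1 CPM in knockout libraries in normal M-CSF. Under low M-CSF the wild-type libraries held 269, 200, 287 and 176 CPM and the knockout libraries 333, 589, 286 and 463 CPM. Wild-type libraries 2 and 4 in normal M-CSF lay well above libraries 1 and 3, and all 4 lay above the knockout, whereas in low M-CSF the genotypes overlapped slightly. The genotype log2 ratio was -1.83 ± 0.32 in normal and 0.84 ± 0.31 in low M-CSF, and the interaction was 2.67 ± 0.45 (edgeR adjusted p = 0.000562). Mir221 held 1.65, 0.825, 0.355 and 0 CPM in wild-type and 1.31, 23.5, 1.17 and 13.9 CPM in knockout libraries in normal M-CSF, at or near the floor in wild-type. Its levels in low M-CSF were 19.9, 19.4, 21 and 14.5 CPM in wild-type and 14.8, 2.33, 6.15 and 0.486 CPM in knockout libraries. The knockout libraries split into 1 and 3 against 2 and 4, in opposite directions in the 2 media. The fitted interaction of Mir221, -5.09 ± 1.07 (edgeR adjusted p = 0.00453), depends on the prior count and is no bound.

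Clec7a, which encodes the fungal glucan receptor Dectin-1, showed genotype differences of opposite sign in the media. It held 90.1, 84.1, 70.1 and 78.7 CPM in wild-type and 23.4, 44.7, 24.9 and 39.8 CPM in knockout libraries in normal M-CSF. Wild-type libraries in low M-CSF held 126, 116, 122 and 107 CPM, and knockout libraries 260.3, 283, 245 and 205 CPM. The knockout lay below wild-type in normal M-CSF and above it in low M-CSF, with no overlap in either. The log2 ratios were -1.29 ± 0.24 (edgeR adjusted p = 0.000631) and 1.07 ± 0.23 (edgeR adjusted p = 0.00112), and the interaction was 2.36 ± 0.33 (edgeR adjusted p = 5.04e-05).

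H2-T23, a nonclassical MHC class I gene, had the highest interaction of the named genes, 4.33 ± 0.72. It held 9.61, 26.5, 7.8 and 28 CPM in wild-type and 3.71, 2.22, 3.86 and 4.82 CPM in knockout libraries in normal M-CSF, and 11.3, 7.44, 9.7 and 4.71 CPM and 46.6, 17, 61.2 and 14.1 CPM in low M-CSF. Wild-type libraries in normal M-CSF and knockout libraries in low M-CSF split into 1 and 3 against 2 and 4, and reads can be misassigned among its close paralogs, so the value is uncertain. Adss, an enzyme of AMP synthesis, had an interaction of 2.44 ± 0.44. Its wild-type libraries in normal M-CSF held 65.5, 235, 60.3 and 214 CPM, again split by pairs, and the knockout libraries there 58.8, 43, 51.9 and 52.6 CPM.

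Cell-division genes were the list with most negative calls. Of 50 genes tested, 16 passed as lower and 1 as higher (34% called, against 5.49% of all genes), with a median of -0.93 against -0.06 for all genes. Between the genotypes, 1 of the 50 was lower in normal M-CSF (2.05% of all genes were), and 22 were lower and 2 higher in low M-CSF (10.9% and 8.2% of all genes). Low M-CSF itself lowered 46 of the 50 in wild-type cells (24.2% of all genes were lower) and 46 in the knockout (32.8% of all genes), at medians of -2.30 and -3.11. With paired libraries summed 0 of the 50 passed for the interaction, and the median was -0.91.

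Birc5, the mitotic protein survivin, held 120.1, 117, 97.7 and 102 CPM in wild-type and 109, 107, 93.3 and 80.7 CPM in knockout libraries in normal M-CSF. The corresponding values in low M-CSF were 30.5, 19.4, 26.3 and 23.5 CPM and 5.25, 2.67, 7.68 and 1.46 CPM. The genotypes overlapped in normal M-CSF and were separate in low M-CSF. The interaction of Birc5 was -2.28 ± 0.36 (edgeR adjusted p = 0.00043). Ccna2, the S-phase and mitotic cyclin A2, held 79.6 ± 4.95 (mean ± SD, n = 4) CPM in wild-type and 72.6 ± 4.92 CPM in knockout libraries in normal M-CSF, and 10.4 ± 1.48 and 2.26 ± 1.41 CPM in low M-CSF. Its genotypes did not overlap in low M-CSF, and its interaction was -2.04 ± 0.39. Ube2c, the ubiquitin-conjugating enzyme of mitotic exit, held 177 ± 12 and 140.4 ± 18.1 CPM in normal and 51.1 ± 7.24 and 11.5 ± 3.16 CPM in low M-CSF. The genotypes of Ube2c did not overlap in either medium, and its interaction was -1.82 ± 0.35.

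Aurkb, the mitotic kinase aurora B, held 6.3, 16.5, 3.64 and 2.14 CPM in wild-type and 0, 0, 2.05 and 0.486 CPM in knockout libraries in low M-CSF, against 23.7 to 38.6 CPM in normal M-CSF. Its fitted interaction, -3.08 ± 0.67, depends on how libraries at 0 are treated and is no bound. It was -9.42 from libraries 1 and 2 alone and -0.57 from libraries 3 and 4 alone. Espl1, the separase that frees sister chromatids, held 2.32, 1.24, 4.04 and 2.14 CPM in wild-type and 0, 0, 0.256 and 0 CPM in knockout libraries in low M-CSF, and Tubg1, a gamma-tubulin of the centrosome, 1.66, 2.89, 0.404 and 4.28 CPM and 0, 0.666, 0 and 0 CPM. For Espl1 the genotypes did not overlap, and for Tubg1 knockout library 2 lay above wild-type library 3, all near the floor. Cdt1, which licenses DNA replication, was the 1 cell-cycle gene that passed as higher, of 10 with a positive value, and is named after its values were seen. It held 7.72 ± 0.884 and 8.72 ± 0.76 CPM in wild-type and knockout in normal M-CSF. In low M-CSF it held 1.01 ± 0.751 and 5.05 ± 2.09 CPM, with wild-type near the floor. Its interaction of 2.07 ± 0.59 (edgeR adjusted p = 0.0334) kept its call under 14 of the 24 alternatives.

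The promoters of the 16 cell-cycle genes that passed as lower were searched for 3 motifs on both strands, in the 250 bases before each start in the RefSeq promoter table (GRCm38.p6). These were TTTGAA, the core of the cell-cycle homology region bound by the DREAM complex, CCAAT, bound by NF-Y, and GCGGGAA, an E2F core. Of the 16 genes, 13 matched the table, with 14 windows. CCAAT was found in 13 of these 14 windows (92.9%), in 72.3% of 47 windows of the tested list and in 35.6% of 11540 windows of all genes tested. TTTGAA was found in 4 (28.6%), 27.7% and 10.7% respectively, and GCGGGAA in 2 (14.3%), 14.9% and 6.93%. Among all 32851 promoter windows the shares were 33.8% for CCAAT, 16% for TTTGAA and 3.82% for GCGGGAA. A match describes letters, not binding. The windows of the 4 genes that hold TTTGAA are shown because they carry it together with CCAAT, with matches in capitals (TTCAAA and ATTGG are matches on the reverse strand).
Ccnb2 (chr9:70421555-70421804, minus strand): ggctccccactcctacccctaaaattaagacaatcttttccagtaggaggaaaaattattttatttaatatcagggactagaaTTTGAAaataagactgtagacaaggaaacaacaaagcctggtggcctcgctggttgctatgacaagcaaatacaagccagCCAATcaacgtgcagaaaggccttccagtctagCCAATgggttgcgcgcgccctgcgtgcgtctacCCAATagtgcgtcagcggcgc
Cdc20 (chr4:118437344-118437593, minus strand): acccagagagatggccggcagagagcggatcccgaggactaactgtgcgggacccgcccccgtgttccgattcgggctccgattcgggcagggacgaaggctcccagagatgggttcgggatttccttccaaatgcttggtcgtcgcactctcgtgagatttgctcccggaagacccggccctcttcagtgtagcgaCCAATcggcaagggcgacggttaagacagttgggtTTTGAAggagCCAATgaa
Cdk1 (chr10:69352913-69353162, minus strand): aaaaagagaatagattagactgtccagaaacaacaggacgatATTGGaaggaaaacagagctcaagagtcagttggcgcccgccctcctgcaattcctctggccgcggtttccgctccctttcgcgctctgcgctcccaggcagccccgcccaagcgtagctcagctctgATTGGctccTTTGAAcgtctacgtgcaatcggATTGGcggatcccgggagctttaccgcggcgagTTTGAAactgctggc
Ube2c (chr2:164769679-164769928, plus strand): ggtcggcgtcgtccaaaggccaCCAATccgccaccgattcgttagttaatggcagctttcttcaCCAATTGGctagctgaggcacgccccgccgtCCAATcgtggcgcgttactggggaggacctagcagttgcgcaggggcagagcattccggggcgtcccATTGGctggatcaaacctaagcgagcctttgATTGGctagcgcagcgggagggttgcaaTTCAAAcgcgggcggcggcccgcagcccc

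In Cdc20, the activator of the anaphase-promoting complex, TTTGAA began 18 bases before the start, with CCAAT at 53 and 8 bases. In Cdk1, the mitotic kinase, TTTGAA lay at 71 and 15 bases, and CCAAT on the reverse strand at 208, 80 and 48 bases. Ube2c held TTTGAA on the reverse strand at 29 bases and 6 CCAAT matches, of which a forward and a reverse match overlap. Ccnb2, cyclin B2, held TTTGAA at 167 bases and CCAAT at 87, 54 and 21 bases. The interactions of Ccnb2, Cdc20 and Cdk1, named for these promoters after their values were seen, were -1.26 ± 0.39, -1.98 ± 0.50 and -1.50 ± 0.32. That of Ccnb2 kept its call under 5 of the 24 alternatives.

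Genes of glycolysis, the pathway from glucose to pyruvate, were called more often than all genes. Of 24 tested, 9 passed as lower and 0 as higher (37.5% called, against 5.49% of all genes), with a median of -0.85. Between the genotypes, 12 were lower and 1 higher in low M-CSF (10.9% and 8.2% of all genes), and 2 were higher and 0 lower in normal M-CSF (1.98% and 2.05%). With paired libraries summed 0 of 24 passed for the interaction, at a median of -0.79. Pgam1, phosphoglycerate mutase, held 809, 689, 639.8 and 655 CPM in wild-type and 834, 655, 771 and 573 CPM in knockout libraries in normal M-CSF. Its low M-CSF values were 256, 287, 239 and 332 CPM in wild-type and 116, 114, 111 and 129.6 CPM in knockout libraries. The genotypes overlapped in normal M-CSF, and in low M-CSF every knockout library lay below every wild-type library. The interaction of Pgam1 was -1.26 ± 0.24 (edgeR adjusted p = 0.00197). Gapdh and Pgk1, which act just before it, had interactions of -1.61 ± 0.34 and -1.16 ± 0.25. Gapdh has many processed copies in the mouse genome, so its counts are uncertain.

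Mitochondrial energy genes had negative medians, and their counts of calls moved with the fit. In the list of the TCA cycle, which oxidises acetyl-CoA, 3 of 25 passed as lower and 0 as higher (12%), with a median of -0.52 (1 without wild-type normal library 2, 5 without wild-type low library 1). In oxidative phosphorylation, the respiratory chain and ATP synthase, 7 of 70 passed as lower and 0 as higher (10%, against 5.49% of all genes), with a median of -0.57. The 7 became 3 with RLE size factors or the 16 libraries fitted alone, 4.29% against 5.13% and 3.9% of all genes. They became 4 with no filter or with the replicate block, 14 with DESeq2 and 0 with paired libraries summed. Leaving out 1 library gave 1 (wild-type low library 4) to 15 (knockout low library 4), and moved the count by over 1.5 times for all but knockout normal library 3 and wild-type normal libraries 1 and 3. Of these 70, 25 were lower and 0 higher in the knockout in low M-CSF, and 0 passed in normal M-CSF (edgeR; 10.9%, 8.2% and 4.04% of all genes). Pdhb, a subunit of pyruvate dehydrogenase, had an interaction of -0.99 ± 0.25, and Fh1, fumarase, of -1.26 ± 0.32. Uqcrq, a subunit of complex III, held 197, 181, 203 and 153 CPM in wild-type and 285, 239.8, 254 and 192 CPM in knockout libraries in normal M-CSF, and 73.6, 83.1, 98.6 and 94.1 CPM and 43.8, 57.3, 54.5 and 67.5 CPM in low M-CSF. The genotypes overlapped in normal M-CSF and were separate in low M-CSF, where the knockout was lower. The interaction of Uqcrq was -1.05 ± 0.24 (edgeR adjusted p = 0.00727), and that of Ndufb11, of complex I, was -1.21 ± 0.32.

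Of 71 cytosolic ribosomal protein genes, 10 passed as lower and 0 as higher (14.1%, against 5.49% of all genes), with a median of -0.52. The 10 became 6 with RLE size factors or no filter and 0 with paired libraries summed. They became 5 without knockout low library 1 or wild-type low or normal library 4, and 6 without knockout low library 3, wild-type normal library 2 or any knockout normal library. Of 57 mitochondrial ribosomal protein genes, 6 passed as lower and 0 as higher (10.5%), with a median of -0.44. The 6 became 2 with the 16 libraries fitted alone (3.51% against 3.9% of all genes) and 0 with paired libraries summed. They became 2 without knockout low or normal library 1 or wild-type normal library 2 or 4, and 3 without knockout low library 2 or knockout normal library 3. Rps6, the small-subunit protein phosphorylated by S6 kinases, held 483, 484, 443 and 506 CPM in wild-type and 569, 629, 533 and 582 CPM in knockout libraries in normal M-CSF. Wild-type libraries held 423, 677, 379 and 686 CPM in low M-CSF, and knockout libraries 275, 281, 261 and 259.8 CPM. The knockout lay above wild-type in normal M-CSF and below it in low M-CSF, without overlap. Wild-type libraries in low M-CSF split into 1 and 3 against 2 and 4, with 1 and 3 nearer the knockout. The interaction of Rps6 was -1.28 ± 0.25 (edgeR adjusted p = 0.00197), and those of Rpl10a and Rpl27, of the large subunit, were -0.92 ± 0.20 and -1.10 ± 0.25. The mitochondrial members Mrps18a and Mrpl15 had interactions of -1.16 ± 0.29 and -0.93 ± 0.25. Ribosomal protein genes have many processed copies, so single members are uncertain. In ribosome biogenesis 3 of 32 passed as lower and 0 as higher (9.38%), but the median was -0.04, and 0.02 with RLE size factors. Fbl, the rRNA methyltransferase fibrillarin, had an interaction of -0.98 ± 0.24, and Srm, spermidine synthase, of -1.60 ± 0.41.

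Genes that make building blocks included further negative calls. In serine and one-carbon metabolism 4 of 14 passed as lower and 0 as higher (28.6%, against 5.49% of all genes), with a median of -1.05, and 2 passed without knockout low library 1. Phgdh, the first enzyme of serine synthesis, held 19.7, 18.1, 21.6 and 26.7 CPM in wild-type and 38, 21.3, 36.6 and 38.2 CPM in knockout libraries in normal M-CSF, and 3.31, 2.48, 1.21 and 3.85 CPM and 1.54, 0.333, 0.512 and 0.486 CPM in low M-CSF. The genotypes overlapped in both media, with the knockout mean above wild-type in normal and below it in low M-CSF. Knockout libraries 2, 3 and 4 in low M-CSF lay near the floor. The fitted interaction of Phgdh, -2.52 ± 0.61 (edgeR adjusted p = 0.013), is therefore no bound. Psat1, the next enzyme, had an interaction of -1.49 ± 0.38 and Mthfd2, the mitochondrial folate enzyme, of -1.22 ± 0.27. In pentose phosphate and nucleotide synthesis 3 of 31 passed as lower and 1, Adss, as higher (12.9% called), with a median of -0.54. Nme1, a nucleoside diphosphate kinase, had an interaction of -1.55 ± 0.26 (edgeR adjusted p = 0.000562). In the ATF4 list 1 of 24 passed, the amino acid transporter Slc38a2, as lower (-1.63 ± 0.33), a share near that of all genes.

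Both lists of lipid synthesis had negative medians. In fatty acid synthesis 2 of 16 passed as lower and 0 as higher (12.5%, against 5.49% of all genes), with a median of -0.65. In cholesterol synthesis 1 of 24 passed as lower and 0 as higher (4.17%, below the share of all genes), with a median of -0.55. Between the genotypes in low M-CSF, 5 of the 16 and 10 of the 24 were lower and 0 higher (10.9% and 8.2% of all genes). In normal M-CSF 0 of the 16 passed, and of the 24, 2 were lower and 0 higher (2.05% and 1.98% of all genes). Fads2, the delta-6 desaturase, held 45, 45.7, 44 and 58.6 CPM in wild-type and 56.4, 58.3, 66.3 and 59.1 CPM in knockout libraries in normal M-CSF. Kept in low M-CSF, wild-type libraries held 8.61, 21.1, 9.29 and 14.1 CPM and knockout libraries 4.63, 5, 1.02 and 0.971 CPM. The genotypes overlapped in normal M-CSF and were separate in low M-CSF. The interaction of Fads2 was -2.47 ± 0.45 (edgeR adjusted p = 0.00129). Scd2, a stearoyl-CoA desaturase, had an interaction of -1.58 ± 0.43 and Fdps, which makes farnesyl diphosphate, of -1.12 ± 0.28.

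Targets of LXR, the sterol-sensing nuclear receptor that drives cholesterol export, had a positive median. Of 15 tested, 4 passed as higher (Abca1, Abcg1, Apoe and, named after its value was seen, Arl4c) and 1 as lower (Scd2), with a median of 0.61 (33.3% called, against 5.49% of all genes). Without knockout low library 1 or 3, 3 passed as higher and 0 as lower. With paired libraries summed 0 of the 15 passed, at a median of 0.62. Abcg1, a sterol exporter, held 48.1, 58.8, 59.2 and 59.6 CPM in wild-type and 93.9, 90, 99 and 121 CPM in knockout libraries in normal M-CSF. Wild-type libraries fell to 19.2, 13.2, 23.4 and 18.4 CPM in low M-CSF, while the knockout held 108, 168, 101 and 90.3 CPM. The knockout lay above wild-type in both media without overlap, further so in low M-CSF. The interaction of Abcg1 was 1.81 ± 0.32 (edgeR adjusted p = 0.00102). Abca1, which loads cholesterol onto apolipoproteins, held 96.5 ± 15.8 (mean ± SD, n = 4) and 70.7 ± 4.61 CPM in wild-type and knockout in normal M-CSF and 229 ± 19.1 and 429 ± 159 CPM in low M-CSF, an interaction of 1.35 ± 0.30. Apoe, the lipid-carrying apolipoprotein, held 479.8, 396, 498 and 446 CPM in wild-type and 509, 543, 591 and 573 CPM in knockout libraries in normal M-CSF. Its levels in low M-CSF were 4110.0, 4750.4, 4851 and 4599.5 CPM and 11757, 8932, 10340.4 and 9529 CPM. Every knockout library lay above every wild-type library in both media, and the interaction of Apoe was 0.86 ± 0.20 (edgeR adjusted p = 0.00745).

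Other genes of lipid-handling macrophages were mixed. Of 24 tested from the lipid-associated macrophage list, 2 passed as higher, Clec7a and Apoe, and 4 as lower, with a median of -0.26 (25% called, against 5.49% of all genes). Spp1, osteopontin, held 6828 ± 805 and 7156 ± 960.5 CPM (mean ± SD, n = 4) in wild-type and knockout in normal M-CSF and 4307 ± 407 and 2201 ± 451 CPM in low M-CSF, an interaction of -1.04 ± 0.25. Lgals3, galectin-3, had an interaction of -1.07 ± 0.27. Of 22 genes of lipid uptake and storage 13.6% were called. In this list 2 passed as higher, Lpin2 (1.03 ± 0.24), a phosphatidate phosphatase, and Olr1 (1.58 ± 0.44), a receptor of oxidised LDL. Lrp1, an endocytic receptor, passed as lower (-0.64 ± 0.20) but kept its call under 2 of the 24 alternatives.

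**Figure D3:**
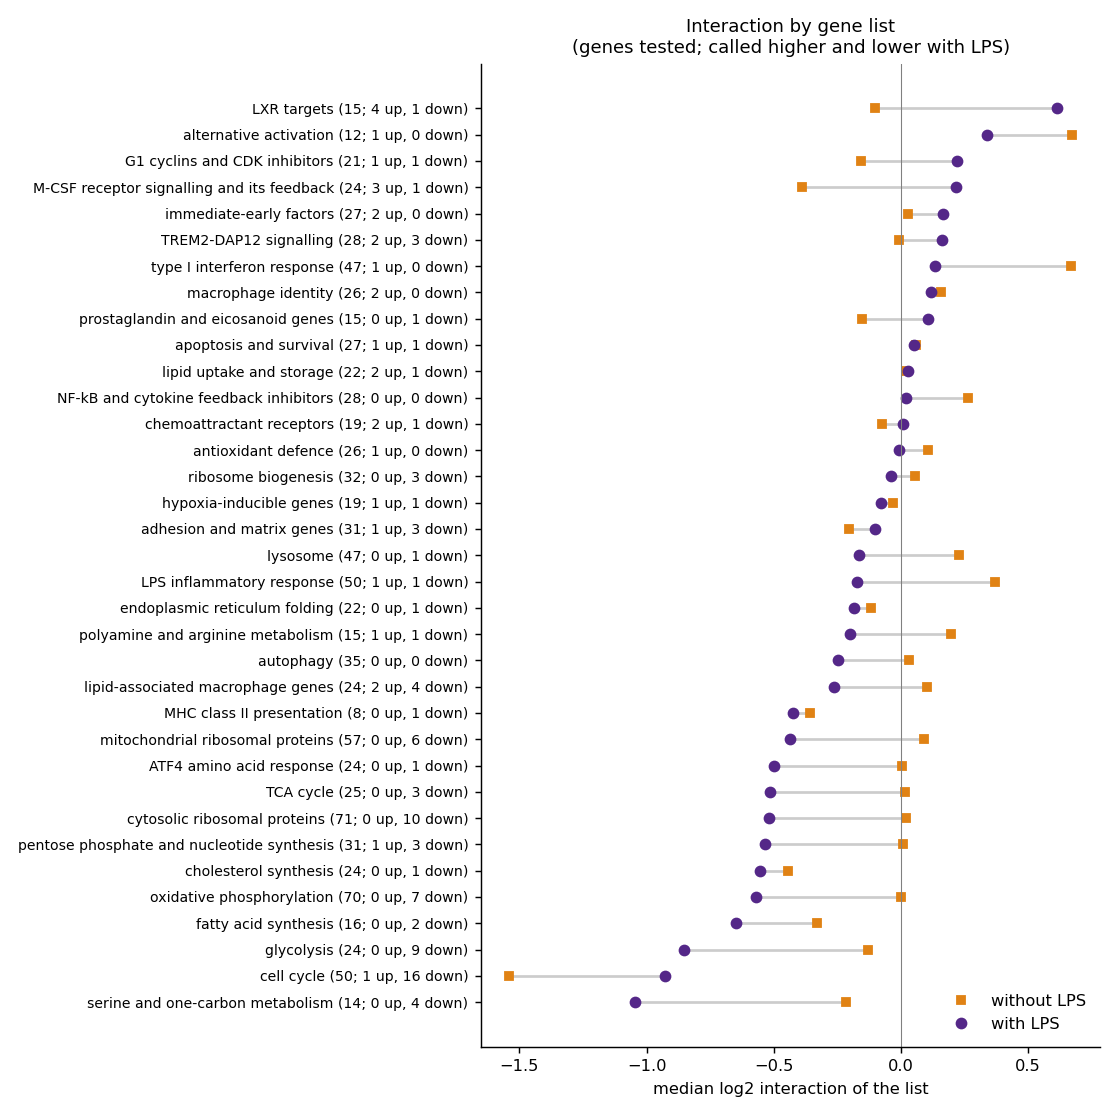
Median log2 interaction of each gene list with LPS (circles) and without LPS (squares), with the numbers of genes tested and called beside each name. Serine and one-carbon metabolism (-1.05), the cell cycle (-0.93) and glycolysis (-0.85) stand lowest with LPS, and LXR targets (0.61) highest.

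Signalling genes downstream of the receptors were called in both directions. Of 28 genes of the TREM2-DAP12 list, 2 passed as higher and 3 as lower (17.9%, against 5.49% of all genes), with a median of 0.16. Blnk, an adaptor of SYK signalling, held 111, 100.2, 111 and 105 CPM in wild-type and 111, 140.4, 106 and 123 CPM in knockout libraries in normal M-CSF, and 262, 215, 211 and 189 CPM and 115, 123, 108 and 121 CPM in low M-CSF. Wild-type cells in low M-CSF stood above the other 3 groups, which overlapped. The interaction of Blnk was -1.08 ± 0.19 (edgeR adjusted p = 0.00123). Ptpn6, the phosphatase SHP-1 that opposes such signalling, held 347, 434, 344 and 429.9 CPM in wild-type and 275, 281, 309 and 296 CPM in knockout libraries in normal M-CSF, and 328, 291, 267 and 266 CPM and 781, 527, 652 and 436 CPM in low M-CSF. The knockout lay below wild-type in normal and above it in low M-CSF without overlap, with an interaction of 1.48 ± 0.33 (edgeR adjusted p = 0.00714). For Ptpn6, libraries 1 and 3 split from 2 and 4 in wild-type cells in normal M-CSF and in the knockout in low M-CSF. Vav3 had an interaction of 1.69 ± 0.44.

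In the list of M-CSF receptor signalling and its feedback 3 of 24 passed as higher and 1 as lower (16.7%, against 5.49% of all genes). Csf2rb, the shared beta chain of the GM-CSF, IL-3 and IL-5 receptors, held 267 ± 35.7 and 138 ± 8.8 CPM (mean ± SD, n = 4) in wild-type and knockout in normal M-CSF and 428 ± 15.6 and 429 ± 71.9 CPM in low M-CSF, an interaction of 0.96 ± 0.22. Of 27 immediate-early factors, 2 passed as higher and 0 as lower (7.41%, against 5.49% of all genes). Egr2, a zinc-finger factor, held 11.6, 19.4, 14.9 and 12.8 CPM in wild-type and 83.1, 14.3, 65.8 and 21.4 CPM in knockout libraries in low M-CSF, where knockout libraries 1 and 3 stood apart, and its interaction was 2.34 ± 0.52. Klf10, a TGF-beta-inducible factor, held 6.63, 3.72, 5.25 and 7.7 CPM in wild-type and 12.4, 30.7, 10.8 and 11.7 CPM in knockout libraries in low M-CSF, where library 2 stood apart, and its interaction was 2.23 ± 0.41. In the macrophage identity list Runx1 (1.01 ± 0.24) and Cebpa (2.23 ± 0.67), transcription factors of the myeloid line, were the 2 of 26 that passed, both higher (7.69%, against 5.49% of all genes). Cebpa kept its call under 8 of the 24 alternatives. Txnrd1, thioredoxin reductase, was the 1 of 26 antioxidant genes that passed (1.17 ± 0.27), a share of 3.85%, below that of all genes. Of 19 chemoattractant receptors 2 passed as higher and 1 as lower (15.8%, against 5.49% of all genes), with a median of 0.01, and 1 passed without knockout or wild-type normal library 2. The higher ones were S1pr1, a sphingosine-1-phosphate receptor (1.76 ± 0.36), and Cxcr4, the receptor of CXCL12 (2.25 ± 0.70, edgeR adjusted p = 0.0495), which stood at up to 7.28 CPM and kept its call under 6 of the 24 alternatives. The lower one was Gpr183, a receptor of oxysterols (-1.29 ± 0.34, edgeR adjusted p = 0.0229).

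The share of the inflammatory list called for the interaction with LPS lay near that of all genes and moved with the fit. Of 50 LPS-induced inflammatory genes, 1 passed as higher and 1 as lower (4% against 5.49% of all genes), with a median of -0.17 and a range from -1.46 to 1.53. With the 16 libraries fitted alone 1 passed as higher and 3 as lower (8% against 3.9% of all genes). Those that passed in the fit of all libraries were Slc7a2, a cationic amino acid transporter (1.53 ± 0.32), and Ccl22, a chemokine (-1.46 ± 0.39). Of the 50, 37 were higher in low than in normal M-CSF in wild-type cells (21.4% of all genes were) and 32 in the knockout (26.5%). Of 47 type I interferon genes 1 passed (2.13%, below the share of all genes), Irgm1, as higher (1.65 ± 0.51), and it kept its call under 11 of the 24 alternatives. Of 28 feedback inhibitors of NF-kB and cytokine signalling 0 passed (edgeR), the smallest adjusted p being that of the phosphatase Dusp4 (0.62 ± 0.29, adjusted p = 0.203). A p that misses the threshold does not show that these responses were equal.

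The same contrast in the 16 libraries without LPS, which share no library with those above, passed for 519 genes (4.62%), 158 positive (1.41%) and 361 negative (3.21%). In those libraries Trem2 stood at 305 ± 46.7 CPM (mean ± SD, n = 4) in wild-type and 36.3 ± 4.96 CPM in knockout in normal M-CSF and at 460.4 ± 70.1 and 115 ± 13.9 CPM in low M-CSF, so the knockout was lower but not near 0. The part of these levels in the results without LPS was not tested. Of the 617 genes called with LPS, 78 (12.6%) also passed without LPS in the same direction, 70 of them negative, and 5 passed in the opposite one. The difference of the interactions passed for 329 of all genes (2.93%), 182 positive (1.62%) and 147 negative (1.31%, or 268 and 117 genes with RLE size factors), and for 157 of the 617 (25.4%). The 617 were chosen by the interaction with LPS, which is a term of this difference. Their share therefore cannot be set against that of all genes. With paired libraries summed it passed for 0 genes by edgeR, against 2364 at an unadjusted p under 0.05 with 4 libraries per group and 717 by DESeq2. The pairs summed did not resemble each other most in every group without LPS.

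Of the 50 genes of the inflammatory list, 6 passed as higher and 2 as lower without LPS (16% against 4.62% of all genes), with a median of 0.37. The difference of the interactions passed for 1 as higher and 4 as lower of these 50 (10% against 2.93% of all genes).

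Cell-cycle genes were also lower without LPS: 40 of 50 passed as lower and 0 as higher (80%, against 4.62% of all genes), with a median of -1.54. The difference of the interactions passed for 8 of them, all positive (16%, against 2.93% of all genes). S100a4 (-1.98 ± 0.23), S100a6 (-1.55 ± 0.24), Birc5 (-2.0 ± 0.31), Fads2 (-2.42 ± 0.37) and Spp1 (-0.96 ± 0.25) passed without LPS as well, and their difference did not pass. Glycolysis had 1 higher and 0 lower of 24 without LPS (4.17%) and a median of -0.13, and its difference passed for 2 of 24 genes (8.33%). Oxidative phosphorylation, cytosolic and mitochondrial ribosomal proteins and the TCA cycle had medians of 0.00, 0.02, 0.09 and 0.02 without LPS. The difference passed as lower for 1, 4, 2 and 2 of their members, and as higher for 1 member of each of the first 2 lists. In either direction these were 2.86%, 7.04%, 3.51% and 8% of the lists, against 2.93% of all genes. Among named genes, most of them chosen by their interaction with LPS, the difference passed for Rps6 (-1.31 ± 0.35), Nme1 (-1.31 ± 0.36), Blnk (-1.55 ± 0.27), Abcg1 (2.08 ± 0.43), Clec7a (1.85 ± 0.46) and Ptpn6 (1.63 ± 0.47). Brip1, a helicase of DNA repair, changed sign, from -1.96 ± 0.33 without to 1.90 ± 0.37 with LPS, a difference of 3.86 ± 0.50 (edgeR adjusted p = 3.85e-05). For Apoe, positive in both (1.29 ± 0.20 without LPS), the difference did not pass (edgeR adjusted p = 0.378).

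**Figure D4:**
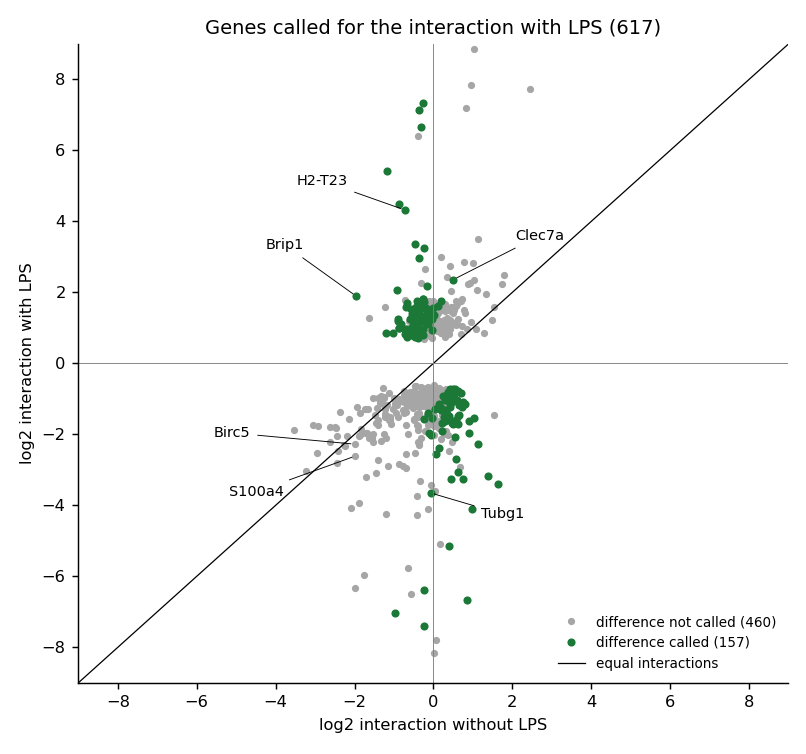
Log2 interaction without LPS (horizontal) and with LPS (vertical) of the 617 genes called with LPS, with the 157 whose difference of the interactions passed in green. Genes such as S100a4 lie near the line of equal interactions, and Clec7a and Brip1 away from it.

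The genes called differed in transcript length. Where a transcript could be matched, the median length (longest GENCODE M21 transcript of a gene) was 5024 bases for the 240 genes with positive and 2346 bases for the 365 with negative interactions, against 3394 bases for 10939 genes tested. With genes cut into 5 equal classes of length, the median interaction went from -0.37 in the shortest class to 0.25 in the longest, and without LPS from 0.09 to 0.02. Of the shortest class 6.9% were called lower and 0.548% higher, and of the longest 1.05% and 5.21%. The share of a library's counts from the shortest class was 19.5 to 23.8% in the knockout and 22.1 to 27.7% in wild-type cells in low M-CSF, and 31.1 to 34.1% and 29.6 to 33% in normal M-CSF. In low M-CSF, wild-type libraries 1 and 3 (22.09 and 22.07%) lay within the knockout range, and libraries 2 and 4 (26.7 and 27.7%) above it. Libraries 1 and 3 stood apart from 2 and 4 in each group with LPS, lower in low and higher in normal M-CSF. TMM factors were 0.598 to 0.671 in the knockout and 0.664 to 0.752 in wild-type cells in low M-CSF, and 0.903 to 1.01 in normal M-CSF. Cytosolic ribosomal proteins and oxidative phosphorylation, with median lengths of 1106 and 1026 bases, are lists of short transcripts, while glycolysis and the cell cycle, at 3207 and 3369.5 bases, lie near the median of all genes. The part of transcript length and of library makeup in the interaction was not tested.

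**Figure D5:**
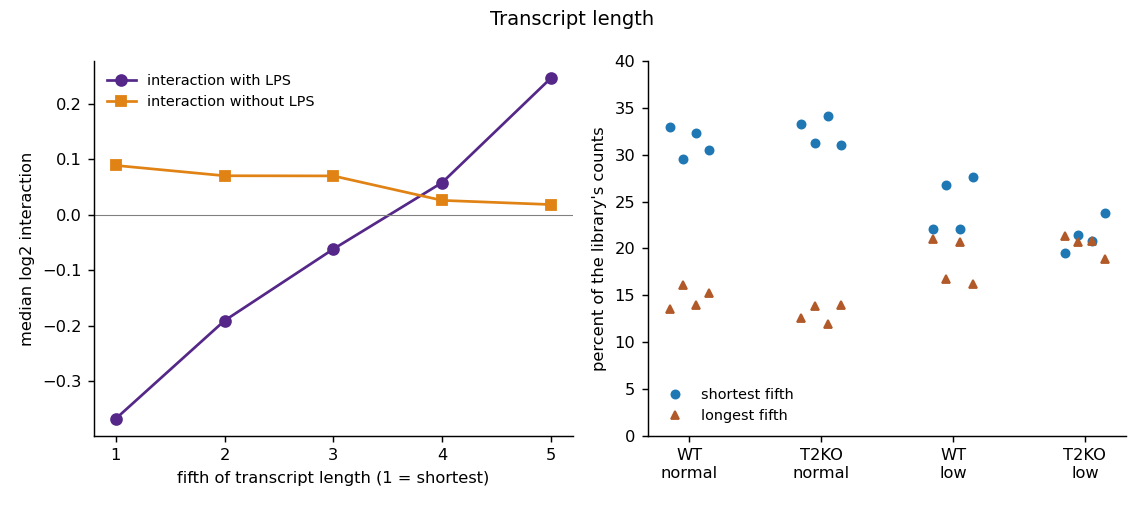
Left, median log2 interaction in 5 classes of transcript length with and without LPS; right, percent of each library's counts from the shortest and the longest class in the 4 groups with LPS. With LPS the median goes from -0.37 to 0.25, and the shares of the shortest and longest class lie closer together in low than in normal M-CSF.

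Within 20 Mb of Trem2 on chromosome 17, 19 of 310 genes tested were called for the interaction (6.13%), near the 5.49% of all genes.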

How the data were processed

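The authors deposited 1 table of gene counts, with no normalisation, covering 24885 identifiers in 32 libraries. The submitters' processing notes name STAR, HTSeq, DESeq2 and build mm10. Versions, annotation and strand setting are not given in the sources used here. Per the labels' protocols, libraries were primed with barcoded oligo-dT and amplified by PCR, with no molecular identifiers mentioned, so intervals and floors cover counting error only. Symbols and positions came from RefSeq (GRCm38.p6) by Entrez identifier for 23969 identifiers (96.3%), which hold 99.5% of the counts.

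All 32 libraries entered 1 edgeR 4.0.16 fit (R 4.3.3) with a mean per group, TMM scaling and filterByExpr, which kept 11244 genes. Contrasts were tested by the two-sided quasi-likelihood F test with Benjamini-Hochberg adjustment over all genes and a threshold of 0.05. CPM are counts scaled by TMM library size unless called raw, and SE follows from the F statistic. The fit was tested on simulated counts drawn independently for each library, which cannot bear on whether the real libraries are independent. Alternatives were RLE scaling, no filter, the compared groups alone, a replicate block, DESeq2 1.42.0, summed library pairs and leaving out each library, and, added after seeing the data, libraries 1 and 2 or 3 and 4 alone.

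The text names Trem2, the 12 highest and 12 lowest interactions among called genes of at least 10 CPM in a group (some left out), up to 3 called members of each list by adjusted p, and the 3 highest and 3 lowest differences of the interactions. S100a6, Cdt1, Ccnb2, Cdc20, Cdk1, F13a1, S100a9, Cd79b and Arl4c were added after their values were seen. The members and lists were chosen with earlier results of these data known. Some items are not reported here.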

Additional observations from a re-analysis of the deposited data

Results flagged for a closer look

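In 13 of 280 groups of 4 libraries looked at, over the genes named, 1 library lay far from the other 3; chance alone would do so in about 1 in 20 groups. In knockout libraries in low M-CSF these were Klf10 in library 2 (30.7 CPM), Espl1 in library 3 (0.256 CPM), Tubg1 in library 2 (0.666 CPM) and Phgdh in library 1 (1.54 CPM). For Espl1 and Tubg1 the other 3 libraries held 0, so any count at all would be flagged. In knockout libraries in normal M-CSF the outlying values were Gapdh (319.6 CPM) and Phgdh (21.3 CPM) in library 2, Fh1 in library 1 (46.97 CPM), and Nme1 (173 CPM) and Cdk1 (151.8 CPM) in library 3. In wild-type libraries in normal M-CSF they were Abcg1 (48.2 CPM) and Rpl27 (728.4 CPM) in library 1, Aurkb in library 2 (31.2 CPM) and Fads2 in library 4 (58.6 CPM).

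For 21 named genes the interaction with LPS differed from that without LPS by the edgeR test of the difference itself, with 4 libraries per group. Most genes were named for their interaction with LPS and some for this difference, so their number is no separate result. The log2 difference was positive for H2-T23 (5.06), Brip1 (3.86), Cdt1 (2.99), Vav3 (2.35), S1pr1 (2.18), Abcg1 (2.08), Dusp4 (1.92), Clec7a (1.85), Ptpn6 (1.63), Mxi1 (1.57) and Abca1 (1.55). It was negative for Tubg1 (-3.58), Mrrf (-2.85), Snx15 (-2.56), Srm (-1.99), Trem2 (-1.61), Blnk (-1.55), Fbl (-1.34), Rps6 (-1.31), Nme1 (-1.31) and Rpl10a (-1.17). With paired libraries summed none of these passed.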

How the results depend on the processing

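The counts of genes called depended most on whether the 4 libraries of a group are independent. Without LPS, libraries 1 and 3, and 2 and 4, did not resemble each other most in every group. There the chi-square statistic was 4.59 to 37.3 in these 8 pairs and 14.7 to 81.5 in the other 16. In wild-type cells in normal M-CSF it was 37.3 for libraries 1 and 3 and 19 for libraries 3 and 4. In wild-type cells in low M-CSF it was 17.8 for libraries 2 and 4 and 14.7 for libraries 3 and 4. With libraries 1 and 3, and 2 and 4, summed, the calls were 1 for the interaction with LPS, 99 without LPS, 0 for their difference, 492 for genotype in low M-CSF, 44 for genotype in normal M-CSF and 3352 for the medium in wild-type cells. Libraries 1 and 2 alone gave 2, 74, 0, 253, 19 and 2410, and 4326 for the medium in the knockout; libraries 3 and 4 alone gave 2, 11, 0, 235, 18 and 2518. DESeq2 called 945 genes (471 positive, 474 negative) for the interaction with LPS, 717 for the difference and 693 for genotype in normal M-CSF. A fit of the compared groups alone gave 1000 for genotype in low and 868 in normal M-CSF, and 439 (225 positive, 214 negative) for the interaction with LPS. No filter on low counts gave 537 (260 positive, 277 negative).

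Leaving out each library gave 322 to 807 genes for the interaction with LPS, 399 to 510 without LPS, 184 to 505 for the difference, 1551 to 2190 for genotype in low and 230 to 361 in normal M-CSF, 4492 to 5173 for the medium in wild-type and 6174 to 6488 in knockout cells. Single libraries moved 3 of these counts by over 1.5 times. For the interaction with LPS these were wild-type normal libraries 2 (322) and 4 (381), wild-type low library 4 (361), knockout low library 1 (356) and knockout normal library 3 (376). For genotype in normal M-CSF these were wild-type normal libraries 2 (230) and 4 (290) and knockout normal library 3 (287). For the difference they were, with LPS, knockout low libraries 1 (195) and 4 (505) and wild-type normal library 2 (199), and, without LPS, knockout normal libraries 1 (184) and 3 (190) and wild-type low library 2 (200). Deviations from group means correlated weakly between libraries of the same number in different groups with LPS (-0.0943 to 0.138, 3 of 24 over 0.1). The correlation was positive for all 4 numbers between wild-type and knockout in normal M-CSF (0.0491 to 0.138). Between wild-type cells in the 2 media it was negative for all 4 (-0.0943 to -0.0334). These values do not show whether the numbers mark a shared batch. Of 33 pathway lists with a gene called for the interaction with LPS, leaving out some library moved the number called by over 1.5 times in 26. The other 7 were the cell cycle (12 to 17 called), glycolysis (6 to 11), lipid-associated macrophage genes (4 to 6), M-CSF receptor signalling (3 to 5), ribosome biogenesis (2 to 4), immediate-early factors (2 to 3) and alternative activation (1). With the replicate block 514 genes passed for the interaction with LPS. Among the 98 genes followed one by one, none changed the sign of its interaction under these alternatives. Arl4c, Cd79b and the monocyte markers other than F13a1 were not among them.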
